A study of Mus musculus with 20 samples.

Results

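The genes that make bile acids, conjugate them and carry them across the hepatocyte were examined in the liver of BaP-exposed mice. The set was defined by gene symbol and not by a cutoff on response, with earlier results of these data known. Every probe was taken whose transcript annotation maps to Cyp7a1, Cyp8b1, Cyp27a1, Cyp7b1, Baat, Slc10a1, Abcb11, Slco1b2, Nr1h4 or Nr0b2. This gave 11 probes of 9 of the 10 genes, among 16535 genes with a symbol on the array and 12940 with a probe above the background limit. Cyp7a1 and Baat had 2 probes each. No probe annotation mapped to Slco1b2 in the tables used here, and it was not analysed here.

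Liver RNA came from 20 male Muta™Mouse animals of strain 40.6, a transgenic line in which every mouse, controls included, carries a bacterial lacZ reporter for mutation. All were 25 weeks old. Controls received olive oil by daily gavage and the others BaP (benzo(a)pyrene, a polycyclic aromatic hydrocarbon and ligand of the aryl hydrocarbon receptor) in olive oil at 25, 50 or 75 mg/kg/day, for 28 days, and were killed 3 days after the last dose, with 5 mice per group. Each sample was labeled with Cy5 and hybridized to 1 array beside Cy3-labeled universal mouse reference RNA from cell lines, so every value below is the log2 ratio of liver over reference for 1 probe (a difference of 1 is a doubling).

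Bile acids are made from cholesterol in hepatocytes. In the classic route Cyp7a1 performs the first and rate-limiting step and Cyp8b1 directs the product toward cholic acid, and in the alternative route Cyp27a1 oxidizes the side chain and Cyp7b1 hydroxylates the resulting oxysterol. Baat then joins the bile acid to an amino acid, mainly taurine in mice, Abcb11 (the bile salt export pump) secretes the conjugate into the canaliculus, and Slc10a1 (Ntcp) takes returning bile acids up from the blood. The nuclear receptor Nr1h4 (FXR) senses bile acids and induces Nr0b2 (SHP), a corepressor that acts on Cyp7a1 and Cyp8b1, and Abcb11 is a direct Nr1h4 target.

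All 11 probes were above the background limit and were marked well above background in the liver channel on 20 of 20 arrays. Across the arrays 51.9 to 67.5% of all spots carried that mark, and control replicate 4 had the highest share. Some sample labels name lung in place of liver; over 8 measured hepatocyte markers the mean log2 ratio was 4.49 to 5.87 on the 20 arrays, and over 5 measured lung epithelium markers it was -0.23 to 0.30. The arrays lay on 6 slides, and dose group and position on the slide coincided for 18 of 20 arrays, so that these cannot be told apart. Slides 1, 3 and 4 hold 1 array of every group, slide 2 holds only control and 50 mg/kg/day arrays, and slides 5 and 6 hold no control.

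None of the 9 genes was called at any dose. A call required a Benjamini-Hochberg adjusted p under 0.05 over 27200 probes by limma and a fold change over 1.5. At 25 mg/kg/day 0 of 9 genes were called (0% of all probes), at 50 mg/kg/day 0 of 9 (0%), and at 75 mg/kg/day 0 of 9 (0.136% of all probes). The mean of the 3 doses against control gave 0 of 9 (0.0147% of all probes), and a linear trend with dose, called on the adjusted p alone, gave 0 of 9 (0.158%). An unadjusted p under 0.05 was reached by 2 of the 9 genes in each of these comparisons, against 7.81% of all probes at 25, 6.7% at 50 and 11.2% at 75 mg/kg/day, 10.7% for the mean and 8.59% for the trend. The lowest adjusted p among the 9 genes was 0.636, 0.671 and 0.196 at the 3 doses, 0.270 for the mean and 0.245 for the trend.

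The differences were small and mostly upward. Of the 9 genes, 9 had a higher mean log2 ratio than the controls at 25 mg/kg/day, 8 at 50 and 8 at 75, where 50.3%, 49.3% and 50.7% of all probes did. The median difference was 0.30, 0.20 and 0.31, and no gene passed 1.5-fold in either direction at any dose: the differences ran from -0.40 (Cyp8b1 at 75 mg/kg/day) to 0.52 (Abcb11 at 25 mg/kg/day). The upward lean was not particular to bile acid genes and did not survive every scaling, as given after the single genes.

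**Figure D1:**
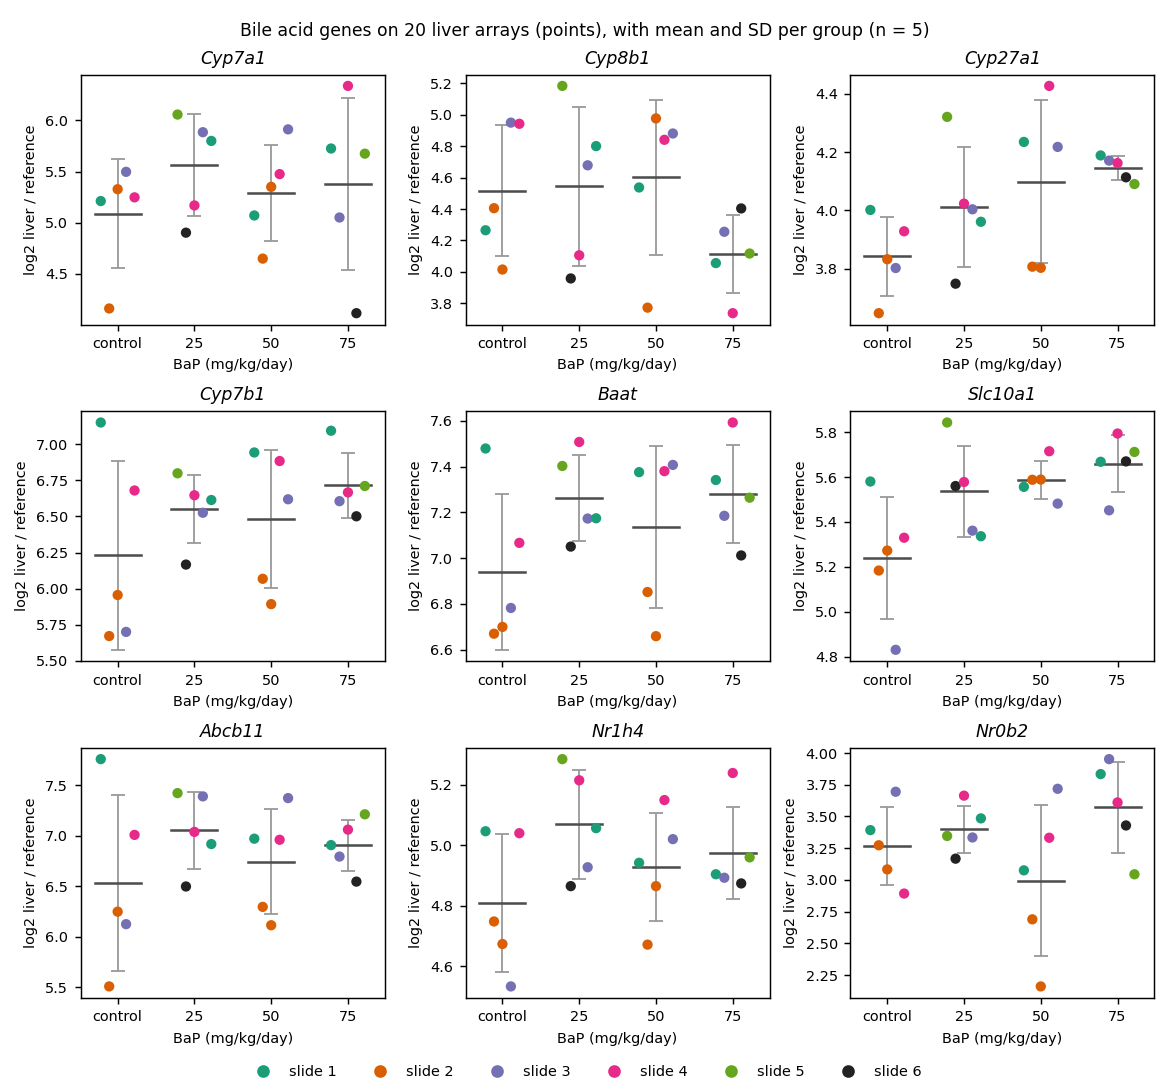
Log2 ratio of liver over reference for the 9 bile acid genes (1 panel per gene, each with its own vertical range) in the control group and the 25, 50 and 75 mg/kg/day groups. Each point is 1 array, colored by slide, bars give the group mean and error bars the SD (n = 5). The 75 mg/kg/day arrays of Cyp27a1 all lie above the control arrays, and in the other 8 genes the groups overlap.

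Slc10a1, the sodium-dependent uptake transporter, came nearest to the threshold. Its log2 ratio was 5.58, 5.18, 5.27, 4.83 and 5.33 in the controls and 5.84, 5.56, 5.58, 5.36 and 5.34 at 25 mg/kg/day. It was 5.56, 5.59, 5.59, 5.71 and 5.48 at 50 mg/kg/day and 5.67, 5.45, 5.79, 5.67 and 5.71 at 75 mg/kg/day. Control replicate 4 was the lowest of the 20 values, and control replicate 1 lay inside the range of the exposed groups, so that 1, 3 and 4 of the 5 exposed arrays stood above all controls at the 3 doses.

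The group means of Slc10a1 followed the order of dose, from 5.24 ± 0.27 (SD, n = 5) in the controls to 5.54 ± 0.20, 5.59 ± 0.08 and 5.66 ± 0.13, and the ranges of neighboring groups overlapped. The difference from control was 0.30, 0.35 and 0.42 (SE 0.12 each), and at 75 mg/kg/day this was 1.34-fold with a 95% confidence interval of 0.17 to 0.67 on the log2 scale and an adjusted p of 0.196. The trend was 0.13 per 25 mg/kg/day (SE 0.04, adjusted p = 0.245). Within slides the 75 mg/kg/day array was higher than its control on 3 of 3 slides, by 0.09 to 0.62. Control replicate 4 set part of the size: without it the difference at 75 mg/kg/day was 0.32 (adjusted p = 0.384).

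RefSeq places 2 transcription starts of Slc10a1 on mouse chromosome 12 (GRCm38.p6, minus strand). The windows from 250 bases before to 50 bases after each start are printed because this gene had the lowest adjusted p of the set at the highest dose, with AGGTCA, the hexamer bound by many nuclear receptors, in capitals on either strand. The window of the first start, chr12:80968656-80968955, holds no match, and that of the second, chr12:80968030-80968329, holds 1, at positions -87 to -82 from the start.
Slc10a1 first start: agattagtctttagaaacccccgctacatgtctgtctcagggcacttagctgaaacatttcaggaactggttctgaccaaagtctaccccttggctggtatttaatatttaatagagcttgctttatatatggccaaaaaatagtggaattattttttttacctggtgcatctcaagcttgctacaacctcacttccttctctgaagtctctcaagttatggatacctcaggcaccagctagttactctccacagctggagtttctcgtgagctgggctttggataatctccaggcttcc
Slc10a1 second start: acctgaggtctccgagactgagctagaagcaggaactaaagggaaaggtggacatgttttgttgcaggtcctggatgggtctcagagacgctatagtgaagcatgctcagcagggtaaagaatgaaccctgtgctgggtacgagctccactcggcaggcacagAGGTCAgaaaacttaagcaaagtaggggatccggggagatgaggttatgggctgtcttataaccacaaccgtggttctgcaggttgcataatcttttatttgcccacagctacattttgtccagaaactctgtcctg
The hexamer occurs in 16.3% of the 32851 promoter windows of this length, and among the genes of the set with a window it also occurs for Abcb11, Nr1h4 and Slco1b2.

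Abcb11, the canalicular export pump, varied far more than it differed between groups. Its log2 ratio was 7.76, 5.51, 6.25, 6.13 and 7.01 in the controls, a range wider than that of any exposed group. It was 7.42, 6.50, 7.04, 7.39 and 6.92 at 25 mg/kg/day, 6.97, 6.30, 6.12, 6.96 and 7.37 at 50 and 6.91, 6.79, 7.06, 6.55 and 7.21 at 75. No exposed array lay outside the controls at any dose. The differences were 0.52, 0.21 and 0.37 (SE 0.32 each, adjusted p = 0.690, 0.930 and 0.696), with intervals that reached 1.19, 0.88 and 1.04, so that an increase of 1.5-fold lay within each of them. With slide as a block in the model the difference at 75 mg/kg/day was 0.02 (SE 0.26), and within slides it ran from -0.85 on slide 1 to 0.67 on slide 3. The spread was smaller in the liver channel alone, normalized without the reference, where the Abcb11 differences were 0.02, 0.03 and -0.02 (SE 0.17 each). The part of the reference in the spread was not tested.

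The Abcb11 window (chr2:69342567-69342866, GRCm38.p6, minus strand) is printed because the gene is a direct Nr1h4 target and because it holds the letters of the aryl hydrocarbon receptor core, GCGTG, read on the opposite strand at positions -146 to -142. The AGGTCA hexamer stands on the opposite strand at -56 to -51, and both matches are in capitals.
Abcb11: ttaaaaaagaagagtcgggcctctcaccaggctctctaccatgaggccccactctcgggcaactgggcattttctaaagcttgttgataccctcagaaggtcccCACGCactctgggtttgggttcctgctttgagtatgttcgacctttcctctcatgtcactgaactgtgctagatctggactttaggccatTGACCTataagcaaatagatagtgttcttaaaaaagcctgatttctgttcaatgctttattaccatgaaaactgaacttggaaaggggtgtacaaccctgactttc
GCGTG occurs in 32.4% of all promoter windows and, among the genes of the set with a window, for Abcb11 and Nr0b2. A match is a description of the letters and was not tested for binding.

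Of the classic route, Cyp7a1 had the largest SD within groups of the set, while Abcb11 had the wider range over the 20 arrays (4.75-fold). Its brighter probe gave 5.21, 4.16, 5.33, 5.50 and 5.25 in the controls and 6.06, 4.90, 5.17, 5.89 and 5.80 at 25 mg/kg/day. It gave 5.07, 4.65, 5.35, 5.48 and 5.91 at 50 mg/kg/day and 5.73, 5.05, 6.34, 4.11 and 5.68 at 75 mg/kg/day. The lowest and the highest of the 20 arrays were both in the 75 mg/kg/day group, a 4.67-fold range, and the groups overlapped at every dose. The SD within groups was 0.60, larger than that of 97.9% of all probes, whose median was 0.22.

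The differences of Cyp7a1 from control were 0.47, 0.20 and 0.29 (SE 0.34 each) for the brighter probe and 0.37, 0.25 and 0.39 (SE 0.35 each) for the other, with adjusted p between 0.715 and 0.937 over both probes and the 3 doses. The 95% interval at 75 mg/kg/day was -0.43 to 1.01 for the brighter probe. The probes followed each other over the 20 arrays (r = 0.87, and 0.79 with slide means removed), so both oligonucleotides showed the spread. Without control replicate 2, the low control, the difference at 50 mg/kg/day was -0.03.

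Cyp8b1, the sterol 12-alpha-hydroxylase, was the only gene of the set that was lower at 75 mg/kg/day. Its log2 ratio was 4.26, 4.41, 4.02, 4.95 and 4.94 in the controls and 5.18, 3.96, 4.11, 4.68 and 4.80 at 25 mg/kg/day. It was 4.54, 3.77, 4.98, 4.84 and 4.88 at 50 mg/kg/day and 4.06, 4.26, 3.74, 4.40 and 4.12 at 75 mg/kg/day. The values of the highest dose group lay together at the lower end of the control range, and 1 of the 5 was below all controls.

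The means of Cyp8b1 were 4.52 ± 0.42, 4.55 ± 0.51, 4.60 ± 0.49 and 4.11 ± 0.25 (SD, n = 5) from the controls to the highest dose, and the first 3 did not differ beyond their spread. The difference at 75 mg/kg/day was -0.40 (SE 0.25, 0.757-fold, 95% interval -0.92 to 0.12, adjusted p = 0.557). It was lower on 3 of 3 slides, by -0.21 on slide 1, -0.69 on slide 3 and -1.21 on slide 4, and with slide as a block it was -0.64 (SE 0.27, adjusted p = 0.326). With the background-subtracted, dye-normalized signals of the scanner software it turned to 0.23, while the other 10 alternative settings gave -0.76 to -0.29. At 25 and 50 mg/kg/day the differences of 0.03 and 0.09 changed sign with the scaling or with the array left out.

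The Cyp8b1 window (chr9:121916256-121916555, GRCm38.p6, minus strand) is shown because this gene went the other way. CAAAGTCCA, a sequence bound by Hnf4a, the hepatocyte nuclear factor, stands in capitals at positions -67 to -59.
Cyp8b1: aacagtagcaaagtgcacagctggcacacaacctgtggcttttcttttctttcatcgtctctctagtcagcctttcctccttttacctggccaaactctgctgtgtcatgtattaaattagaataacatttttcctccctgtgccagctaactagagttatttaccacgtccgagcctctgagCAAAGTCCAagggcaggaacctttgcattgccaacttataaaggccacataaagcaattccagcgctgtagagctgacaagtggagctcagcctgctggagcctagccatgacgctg
These 9 letters occur on either strand in 0.475% of all promoter windows and for no other gene of the set with a window. GCGTG and AGGTCA have no match in this window.

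In the alternative route Cyp27a1 was the only gene whose groups did not overlap at a dose. The controls were 4.00, 3.65, 3.83, 3.80 and 3.93, and the 75 mg/kg/day arrays 4.19, 4.17, 4.16, 4.11 and 4.09, all higher. Such a separation, upward or downward, held for 1 of 9 genes at 75 mg/kg/day (1.52% of all probes) and for 0 of 9 at 25 (1.22%) and at 50 mg/kg/day (0.824%). The 25 mg/kg/day arrays lay between 3.75 and 4.32 and the 50 mg/kg/day arrays between 3.80 and 4.43, overlapping the controls. The differences were 0.17, 0.26 and 0.30 (SE 0.12 each), 1.23-fold at the highest dose with an adjusted p of 0.353, and with slide as a block the last was 0.18 (adjusted p = 0.524). Within slides the highest dose was above its control on 3 of 3 slides, by 0.19 to 0.37.

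Cyp7b1, the oxysterol 7-alpha-hydroxylase, ranged from 5.67 to 7.15 in the controls and from 6.50 to 7.09 at 75 mg/kg/day, with the highest value of the 20 arrays in a control. Its differences were 0.32, 0.25 and 0.48 (SE 0.25 each, adjusted p = 0.761, 0.881 and 0.481). The slide accounted for 74.2% of its variance over the arrays, against a median of 40.2% over all probes, and with slide as a block the differences were 0.07, 0.25 and 0.24. In the liver channel alone the Cyp7b1 differences were 0.01, 0.04 and -0.20 (SE 0.12 each).

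The brighter probe of Baat, the amino acid conjugating enzyme, had medians of 6.78 (lowest 6.67, highest 7.48) in the controls and 7.17, 7.38 and 7.26 in the dose groups. It was higher by 0.32, 0.20 and 0.34 (SE 0.17 each, adjusted p = 0.653, 0.859 and 0.463). The second Baat probe was higher by 0.12, 0.20 and 0.11 (SE 0.09 each). Over the 20 arrays the 2 probes of Baat hardly followed each other (r = 0.04, and 0.28 with slide means removed), unlike those of Cyp7a1, so the array pattern of Baat depends on the probe.

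Among the regulators, Nr1h4, the bile acid receptor, was higher by 0.26, 0.12 and 0.17 (SE 0.12 each, adjusted p = 0.639, 0.879 and 0.635). Its controls ran from 4.53 to 5.05 and the 75 mg/kg/day arrays from 4.87 to 5.24, and the order of the means was control, 50, 75 and 25 mg/kg/day with overlap between neighbors.

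Nr0b2, the corepressor induced by Nr1h4, was the only gene lower at 50 mg/kg/day and higher at the other doses. Its log2 ratio was 3.39, 3.27, 3.08, 3.70 and 2.89 in the controls and 3.35, 3.17, 3.66, 3.33 and 3.49 at 25 mg/kg/day. It was 3.08, 2.69, 2.16, 3.33 and 3.72 at 50 mg/kg/day and 3.83, 3.95, 3.61, 3.43 and 3.04 at 75 mg/kg/day. The 50 mg/kg/day group held both the lowest value of the 20 arrays and a value above all controls. The differences were 0.13, -0.27 and 0.31 (SE 0.23 each, adjusted p = 0.905, 0.855 and 0.648), and on slides the highest dose exceeded its control by 0.26 to 0.72 on 3 of 3.

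The Nr0b2 window (chr4:133553126-133553425, GRCm38.p6, plus strand) is shown for its regulator sites. In capitals are CAAGGCCA, a variant of the element bound by Nr5a2 (LRH-1), at positions -201 to -194, and GCGTG at -137 to -133.
Nr0b2: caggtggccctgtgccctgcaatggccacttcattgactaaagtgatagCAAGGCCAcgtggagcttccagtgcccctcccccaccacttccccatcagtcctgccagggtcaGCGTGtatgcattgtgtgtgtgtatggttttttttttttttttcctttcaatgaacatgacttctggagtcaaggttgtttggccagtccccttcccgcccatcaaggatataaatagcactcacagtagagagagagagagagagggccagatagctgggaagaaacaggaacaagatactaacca
CAAGGCCA occurs on either strand in 2.4% of all promoter windows and for no other gene of the set with a window. Of the 10 genes 7 have a promoter entry in the table used here, and Cyp7a1, Cyp7b1 and Baat have none.

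**Figure D2:**
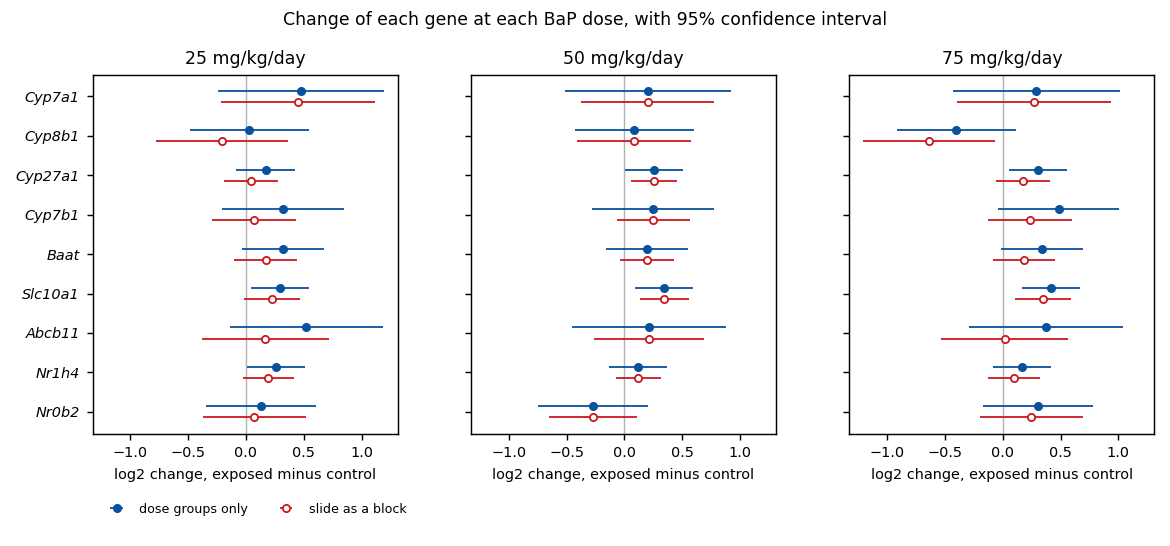
Difference in log2 ratio from control (horizontal axis) for each gene at 25, 50 and 75 mg/kg/day with its 95% confidence interval, from the model of the dose groups alone (filled) and with slide as a block (open). At 75 mg/kg/day Slc10a1 lies at 0.42 and Cyp8b1 at -0.40, and adding the slide moves Abcb11 from 0.37 to 0.02.

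Between arrays most pairs of genes moved in the same direction, less so once slide means were removed. Over the 20 arrays, 31 of 36 pairs of genes had r above 0, with a median of 0.49, and 25 of 36 with a median of 0.26 once slide means were removed. Cyp7b1 followed the brighter probe of Baat (r = 0.88, 0.66 with slide means removed), but not the second (-0.17, -0.0059), and it followed Abcb11 (0.87, 0.75), and Slc10a1 followed Cyp7b1 (0.62, 0.81). Cyp8b1 stood outside, at -0.25 with Slc10a1 and between -0.11 and 0.22 with the other 7 (with the second probe of Cyp7a1 at 0.47). With slide means removed Cyp8b1 was at -0.26 with Slc10a1 and between -0.46 (brighter Baat probe) and 0.17 (Nr1h4) with the other 7. It was then at -0.43 with Nr0b2, at 0.19 with the second Baat probe and at 0.32 with the second probe of Cyp7a1. The points of each correlation share slides, labeling and reference, and these values describe the arrays without a test.

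Most of the low arrays of Abcb11 and Cyp7b1 shared a slide. On slide 2, which held controls 2 and 3 and 50 mg/kg/day replicates 12 and 13, Abcb11 was 5.51 to 6.30 and Cyp7b1 5.67 to 6.07. Control replicate 4, on slide 3, lay within these ranges, at 6.13 and 5.70, and the other 15 arrays lay above them, from 6.50 for Abcb11 and from 6.17 for Cyp7b1. The slide accounted for 64.7% of the variance of Abcb11, 65.2% of Nr1h4 and 73.1% of the brighter Baat probe, but for 21.8% of the second Baat probe and 15.4% of Cyp8b1. The dose group accounted for 47.8% of the variance of Slc10a1, against a median of 15.4% over all probes.

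**Figure D3:**
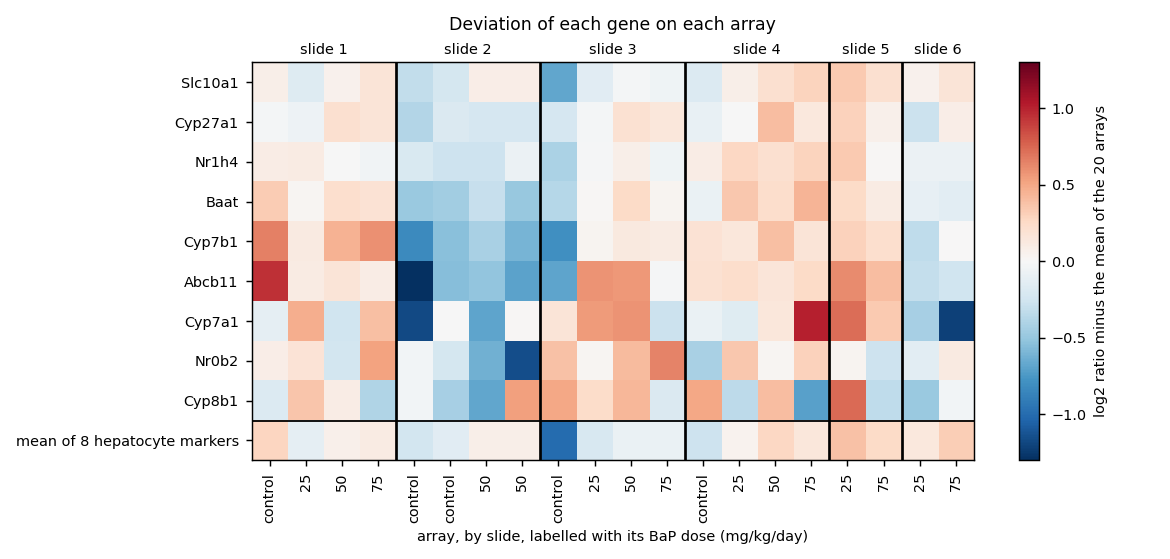
Log2 ratio of each gene on each of the 20 arrays minus the mean of that gene (color), with arrays in columns grouped by slide and labeled with their dose, and the mean of 8 hepatocyte markers in the last row. Slide 2 is low for Abcb11, Cyp7b1 and the brighter probe of Baat whatever the dose, and control replicate 4 (the control on slide 3) is low for Slc10a1 and for the hepatocyte markers.

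Genes whose pattern over the 20 arrays was most like that of a bile acid gene were sought among 12752 genes. Slc10a1 was closest to the secreted plasma proteins Apoa2 (r = 0.95, and 0.93 with slide means removed), C8g (0.93, 0.93) and Cfi (0.92, 0.90). Cyp7b1 was closest to the drug-metabolizing Cyp3a11 (0.98, 0.95), to Cdo1 (0.97, 0.93), an enzyme of taurine synthesis, and to Cyp2c40 (0.97, 0.93). The brighter probe of Baat was closest to the complement and coagulation genes C8b (0.96, 0.88) and F11 (0.96, 0.93) and to Aldh8a1 (0.96, 0.84). All 9 of these likenesses were at r of 0.92 or more, and all 9 genes are known from liver.

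The other genes are given with r and, after it, r with slide means removed. Cyp27a1 was closest to the urea cycle gene Nags (0.91, 0.88), to Tlcd2 (0.88, 0.85) and to Cyp2c37 (0.88, 0.79). Abcb11 was closest to Plin5 (0.92, 0.78), Pigr (0.92, 0.79) and the liver glycogen synthase Gys2 (0.92, 0.89), and Nr1h4 to Tmprss6 (0.88, 0.83), Amy1 (0.87, 0.75) and the fructose-metabolizing Khk (0.85, 0.69). Likeness was weaker for the rest. Cyp7a1 was closest to Tut4 (0.76, 0.74), Copg2 (0.74, 0.56) and Mettl15 (0.74, 0.52), and Cyp8b1 to Eppk1 (0.73, 0.80), Uros (0.73, 0.79) and Ranbp1 (0.73, 0.75). Nr0b2 was closest to Olfr1211 (0.83, 0.67), to Slc51b (0.77, 0.73), which encodes a subunit of the basolateral bile acid exporter, and to Olfr544 (0.77, 0.60).

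Markers of hepatocytes moved with the set. Of 10 listed markers 8 were measured, namely Alb, Apoa1, Ttr, Tat, Ass1, Serpinc1, Fgb and Hpx, and 8 of 8 were higher than in the controls at each dose, with medians of 0.35, 0.30 and 0.40, and 0 were called. In the liver channel alone, normalized without the reference, 4, 5 and 4 of the 8 were higher, with medians of 0.02, 0.04 and -0.01. With quantile normalization between arrays 6, 7 and 7 of the 8 were higher, with medians of 0.13, 0.10 and 0.15. The mean log2 ratio of the markers per array ran from 4.49 to 5.77 in the controls and from 5.40 to 5.81 at 75 mg/kg/day. It correlated with Slc10a1 at r = 0.94 over 20 arrays, and at 0.89 without control replicates 4 and 5, the arrays farthest from the median. With slide means removed, r was 0.94 for Slc10a1, 0.89 for Cyp7b1 (0.57 before), 0.82 for the brighter Baat probe (0.48) and 0.36 for the second (0.18). It was 0.72 for Cyp27a1 (0.49), 0.72 for Nr1h4 (0.59) and 0.71 for Abcb11 (0.42). It was 0.10 for Cyp7a1 (-0.01), 0.02 for Nr0b2 (-0.16) and -0.21 for Cyp8b1 (-0.26). Without control replicate 4, the medians at the 3 doses were 0.19, 0.15 and 0.22 for the hepatocyte markers, with 6, 6 and 7 of 8 higher, and 0.19, 0.16 and 0.30 for the 9 genes, with 9, 8 and 8 of 9 higher. In bulk liver RNA a change in the share of a cell type and a change in RNA per cell cannot be told apart, and the part of the hepatocyte markers in these differences was not tested.

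The same lean was present in liver-rich transcripts at large. A mean log2 ratio above 2 over the 20 arrays, that is, over 4-fold more signal in liver than in the reference, was found for 2082 probes, and 80.9%, 71.6% and 76.2% of these were higher than in the controls at the 3 doses, with medians of 0.18, 0.13 and 0.20. Of the 2082 probes 6 were called at 75 mg/kg/day, where 37 of all 27200 probes (0.136%) were called. In the liver channel alone, normalized without the reference, 5, 6 and 4 of the 9 bile acid genes were higher, with medians of 0.01, 0.01 and -0.02, and the Slc10a1 difference at 75 mg/kg/day was -0.10 in place of 0.42. With quantile normalization between arrays 6, 5 and 6 of 9 were higher, with medians of 0.04, 0.01 and 0.09, and Slc10a1 was at 0.12. The upward direction of the set was thus seen in the within-array ratios to the reference and was not kept by these 2 scalings, whereas Cyp8b1 at 75 mg/kg/day was lower in both, at -0.76 and -0.65.

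Beyond these genes, 48 more genes of bile acid synthesis, transport and regulation were tested and 0 were called in any comparison. At 75 mg/kg/day 12 of 15 other synthesis genes were higher, with a median of 0.34, as were 14 of 14 transport genes (0.37) and 16 of 19 regulators (0.25), with the median of all probes at 0.00. Among the liver-rich probes described above 76.2% were higher at that dose, with a median of 0.20. With slide as a block the list medians were 0.15, 0.33 and 0.17, against 0.15 for the liver-rich probes, and the transport gene Abcc3 was lower, at -0.08. The second probe of Abcc3, well above background on 18 arrays, was higher in that model, by 0.27 (SE 0.12, adjusted p = 0.342). All 5 exposed arrays stood above all controls for 3 of the 48, Slc10a2, Abcc4 and Nr5a2, and below them for 0, where 1.52% of all probes separated in either direction.

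Slc10a2, the apical sodium-dependent bile acid transporter known from ileum and bile duct cells, had the largest difference of the wider lists. Its log2 ratio was 3.29 to 4.53 in the controls and 4.59 to 5.17 at 75 mg/kg/day, with no overlap. It was higher by 0.55, 0.69 and 1.06 (SE 0.24 each), 2.08-fold at the highest dose, and did not pass the test there (adjusted p = 0.0893) or for the trend (0.33 per 25 mg/kg/day, adjusted p = 0.0817). A second probe gave 0.74 at 75 mg/kg/day (SE 0.21, adjusted p = 0.190), also with 5 of 5 arrays above the controls. The 6 measured bile duct markers had a median of -0.05 at that dose, with 3 of 6 higher.

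Abcc4, a basolateral exporter, was higher by 0.42 (SE 0.13, adjusted p = 0.237), but its second probe, well above background on only 7 arrays, gave -0.06. Nr5a2, the activator of Cyp7a1 and Cyp8b1 transcription, was higher by 0.42 (SE 0.15, adjusted p = 0.324). Cyp39a1, the 24-hydroxycholesterol 7-alpha-hydroxylase, was chosen after its values were seen. It was higher by 0.09, 0.73 and 0.94 (SE 0.28 each, adjusted p = 0.208 at 75 mg/kg/day). With slide as a block the last was 0.94 with an adjusted p of 0.0368. This was the single call among the 48 genes under that model at that dose, where 58 of all 27200 probes were called. The second probe of Cyp39a1, well above background on 20 arrays, was higher by 0.62 (SE 0.24, adjusted p = 0.332), and by 0.56 with slide as a block (adjusted p = 0.129), and was not called.

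**Figure D4:**
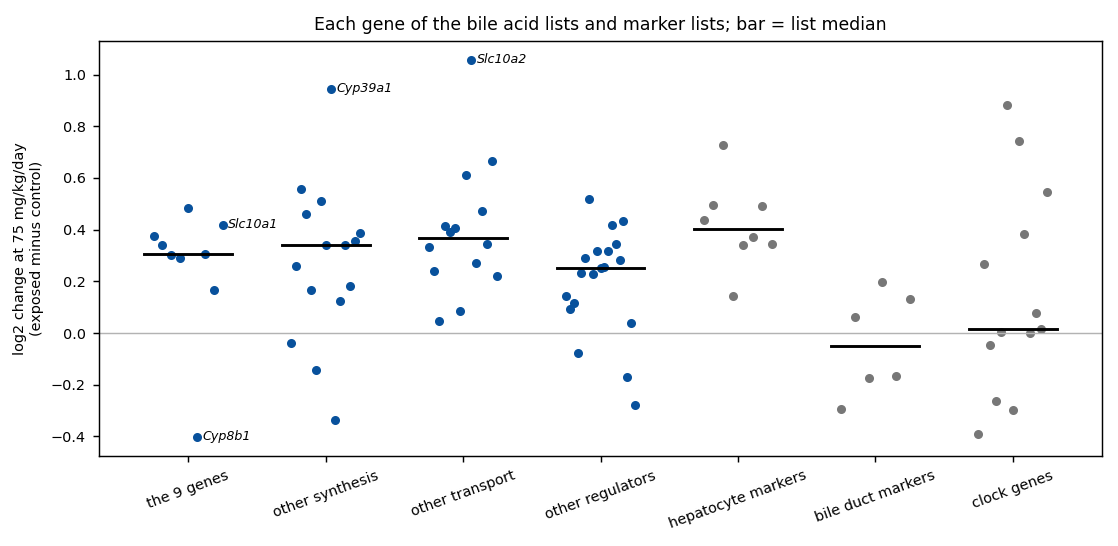
Difference in log2 ratio between 75 mg/kg/day and control (vertical axis) for each tested gene (points) of the bile acid lists (blue) and of 3 marker lists (gray), with the list median as a bar. Medians are 0.31, 0.34, 0.37 and 0.25 for the bile acid lists and 0.40 for the hepatocyte markers, and Slc10a2 and Cyp39a1 lie highest among the bile acid genes.

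Other cell types and conditions were measured beside these values. At 75 mg/kg/day medians were 0.43 for 8 endothelial markers (1 called, Lyve1), 0.10 for 8 Kupffer cell markers (1 called, Marco) and 0.19 for 8 stellate cell and fibroblast markers (0 called). At that dose 0.136% of all probes were called. The 5 lung markers had a median of 0.04. Over 13 clock genes, listed because Cyp7a1 is a rhythmic gene, 0 were called. Their median was 0.24, 0.35 and 0.02 at the 3 doses, and it does not describe the single genes. These ran from -0.74 to 1.29 at 25, from -0.56 to 1.14 at 50 and from -0.39 to 0.88 at 75 mg/kg/day. Of 6 aryl hydrocarbon receptor targets 1 was called at 75 mg/kg/day, Nqo1, at 0.68 (adjusted p = 0.0385). In this list 5 were higher and 1 was lower, from -0.12 to 0.72, with a median of 0.43. The list mean per array ran from -0.34 to 0.48 at that dose, with a median of -0.30. In the controls it ran from -0.62 to -0.33, with a median of -0.52. The paper describes no upregulation of Cyp1a1 and Cyp1b1. The part of these cell types and conditions in the bile acid values was not tested.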

How the data were processed

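For each array the authors deposited median intensity values of spot and local background in both channels, not normalized, processed intensities that Feature Extraction 10.1.1.1 (per the file headers) had background subtracted and dye normalized, and flags for spot quality. They also deposited log2 ratios after LOWESS within arrays, used here as an alternative (r of 0.994 to 0.996 across probes with the values computed here). The study left out an array without naming it, and all 20 were used here.

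Intensities were corrected by normexp (offset 50) and loess normalized within arrays, and spots of the same probe were averaged (41174 probes). Presence required a liver signal over the 5% trimmed mean plus 3 trimmed SDs of 153 negative controls on 4 of the 5 arrays of a group (27200 probes). RefSeq accessions gave symbols to 23374 probes, and the brightest probe stands for a gene. limma 3.58.1 in R 4.3.3, checked on simulated data, fitted the 20 arrays in a model of dose groups and in a model of dose as a number (two-sided, Benjamini-Hochberg within each contrast); the MAANOVA library of the study was not used here. Each mouse was on 1 array, so in these models p-values measure the spread between mice together with that of slide, labeling and hybridization. The number of arrays limits the precision. Named genes are the members, wider bile acid genes that were called or, at 75 mg/kg/day, up to 3 in each direction with separated arrays, and the 3 genes of highest r per member. Members and lists were chosen with earlier results of these data known. Promoters are from RefSeq (GRCm38.p6); the array design uses an older build, so no probe positions are given. The alternatives tried were other background corrections, scalings and probe filters, slide as a block, array weights, fits of 2 groups alone and leaving out each array. The series text gives 24 mg/kg for the lowest dose, and the labels 25.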

Additional observations from a re-analysis of the deposited data

Results flagged for a closer look

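Of 44 groups of 5 arrays (11 probes in 4 groups), 2 held an array far from the others, and chance gives about 1 in 20. For the brighter probe of Cyp7a1, control replicate 2 was at a log2 ratio of 4.16, with the nearest other control at 5.21, a gap of 0.786 of the whole range of the group. For Nr1h4, replicate 18 of the 75 mg/kg/day group was at 5.24, with the nearest other array at 4.96, a gap of 0.764 of the range. Without these arrays 0 of the 9 genes were called at any dose.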

How the results depend on the processing

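None of the 9 genes was called at any dose under any of 11 alternative settings or with any of the 20 arrays left out. None was called in the mean of the doses or in the trend either, but the fits of 2 groups alone included neither. The lowest adjusted p reached by a member at a dose or in the mean was 0.0679. It was that of Slc10a1 in the mean of the 3 doses without control replicate 1. The adjusted p of the trend was not recorded in these fits. The 48 further bile acid genes were refitted only without control replicate 4, where 0 were called at any dose, and with slide as a block, where Cyp39a1 at 75 mg/kg/day was called (adjusted p = 0.0368). Of 837 recomputed differences at single doses, 807 kept their direction and 30 changed it. With quantile normalization Cyp8b1 was at -0.20, Cyp27a1 at -0.0050 and Nr0b2 at -0.025 at 25 mg/kg/day, Cyp8b1 at -0.074, Abcb11 at -0.040 and Nr1h4 at -0.031 at 50, and Cyp7a1 at -0.0044 and Nr1h4 at -0.10 at 75. In the liver channel alone Cyp8b1 was at -0.26, Cyp27a1 at -0.063, Nr0b2 at -0.17 and Nr1h4 at -0.027 at 25 mg/kg/day, Cyp8b1 at -0.16 and Nr1h4 at -0.084 at 50, and Cyp7b1 at -0.20, Slc10a1 at -0.10, Abcb11 at -0.021 and Nr1h4 at -0.24 at 75. With the processed signals Cyp8b1 at 75 mg/kg/day was at 0.23. With slide as a block Cyp8b1 at 25 mg/kg/day was at -0.21, and as a random block at -0.062. Leaving out 1 array gave Cyp8b1 -0.13 to 0.18 at 25 and -0.039 to 0.29 at 50 mg/kg/day, Cyp7a1 -0.029 to 0.36 and Abcb11 -0.042 to 0.52 at 50. The cause was not tested. Over all probes, the 37 calls at 75 mg/kg/day became 62 with the processed signals, 58 with slide as a block, 62 with it as a random block, 5 with only the 2 groups compared, and 25 to 72 with 1 array left out (72 without replicate 19 of that group). At 50 mg/kg/day the 0 calls became 6 with the processed signals, 3 with slide as a block, 6 with it as a random block and 0 to 1 with 1 array left out, and at 25 mg/kg/day 0 to 2 (2 without control replicate 3). The groups share no replicate numbers, and arrays were tied by slide alone, as a block and in the differences within slides.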
